A study of Mus musculus with 3 samples.

Results

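Genes of cholesterol synthesis and lipid supply were examined in the blastocysts of NOD and B6 mice. The set holds 37 of the 24063 genes in the table of counts, chosen by symbol for their textbook role with earlier results of these data known, and all 37 symbols were found. By role, 8 genes encode enzymes that build squalene from acetyl-CoA, 10 encode enzymes that turn squalene into cholesterol, 5 encode the SREBP transcription factors and the proteins that control them, 7 act in lipoprotein uptake and sterol traffic, and 7 act in fatty acid synthesis. The members lie on 18 chromosomes, so that they do not stand for 1 region of the genome.

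B6 is the inbred strain C57BL/6, and NOD is the inbred strain of non-obese diabetic mice, which develop autoimmune diabetes spontaneously. The data were 1 library from an untreated B6 blastocyst sample and 2 libraries from untreated NOD blastocyst samples (NOD 1 and NOD 2), with no transgene or other allele named. The labels do not give the age of the embryos or the number per library, and they do not say whether NOD 1 and NOD 2 came from separate animals. P values therefore measure only the spread between these libraries, which for B6 is not known. The labels give whole blastocysts as the input, whereas the study's methods describe single inner cell masses (ICM), and values are given here for blastocysts without assigning them to a cell type. In bulk samples of this kind, fewer cells of a type and less RNA per cell cannot be told apart. Counts on genes summed to 12505685 in B6 and to 33891715 and 36171013 in the NOD libraries, so that the B6 library sets the precision. Values of the NOD libraries are given in the order NOD 1, NOD 2.

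Cells obtain cholesterol by making it and by taking up lipoproteins. When sterols are scarce in the endoplasmic reticulum, SCAP escorts the SREBP precursors to the Golgi apparatus, where proteases release the active factor, which then switches on genes of sterol and fatty acid synthesis. When sterols are plentiful, INSIG proteins hold SCAP and SREBP back. SREBP2, from Srebf2, mainly drives the sterol genes, and SREBP1, from Srebf1, the fatty acid genes. In the early embryo, sterols and fatty acids supply the membranes of dividing cells, and cholesterol is also attached to Hedgehog proteins.

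Of the 18 enzymes of sterol synthesis, 14 were higher in both NOD libraries than in B6 (77.8%, beside 45.3% of all genes tested). Of the 18, 5 were called up-regulated (27.8%, beside 10.3%) and none down-regulated (beside 7.39%). Of the 5 genes of SREBP control, Insig2 was up-regulated, and Scap and Srebf1 were down-regulated. The test was edgeR's quasi-likelihood test over 14456 genes, and genes that passed an adjusted p of 0.05 (Benjamini-Hochberg) with a fold change of 2 or more are called up- or down-regulated in NOD. Of the 36 members that passed the filter on low counts, 6 were up-regulated in NOD (16.7%, beside 10.3% of all genes tested) and 2 were down-regulated (5.56%, beside 7.39%). The other 28 did not pass, although 21 of the 36 members had an unadjusted p under 0.05, a share that was 39.9% among all genes. The up-regulated members were Fdps, Cyp51, Msmo1, Nsdhl, Sc5d and Insig2, and the down-regulated members were Scap and Srebf1. The only member not tested was Apob, with 2 counts in B6 against 0 and 8 in the NOD libraries. The median log2 fold change of the members, NOD minus B6, was 0.22, beside 0.26 for all genes tested. With offsets for GC content and length, described further on, the calls of Cyp51, Nsdhl, Sc5d and Insig2 held and those of Fdps, Msmo1, Scap and Srebf1 did not.

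These calls rest on 1 residual degree of freedom, and exact permutations of 1 against 2 libraries reach no p below 0.333. No member was called with limma-voom (16 with an unadjusted p under 0.05) or when genes of low counts were kept in edgeR (18 with an unadjusted p under 0.05), settings in which no gene of the whole table was called, and DESeq2 called 13 members up and 4 down, where it called 18.5% of all genes up and 14.8% down.

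**Figure D1:**
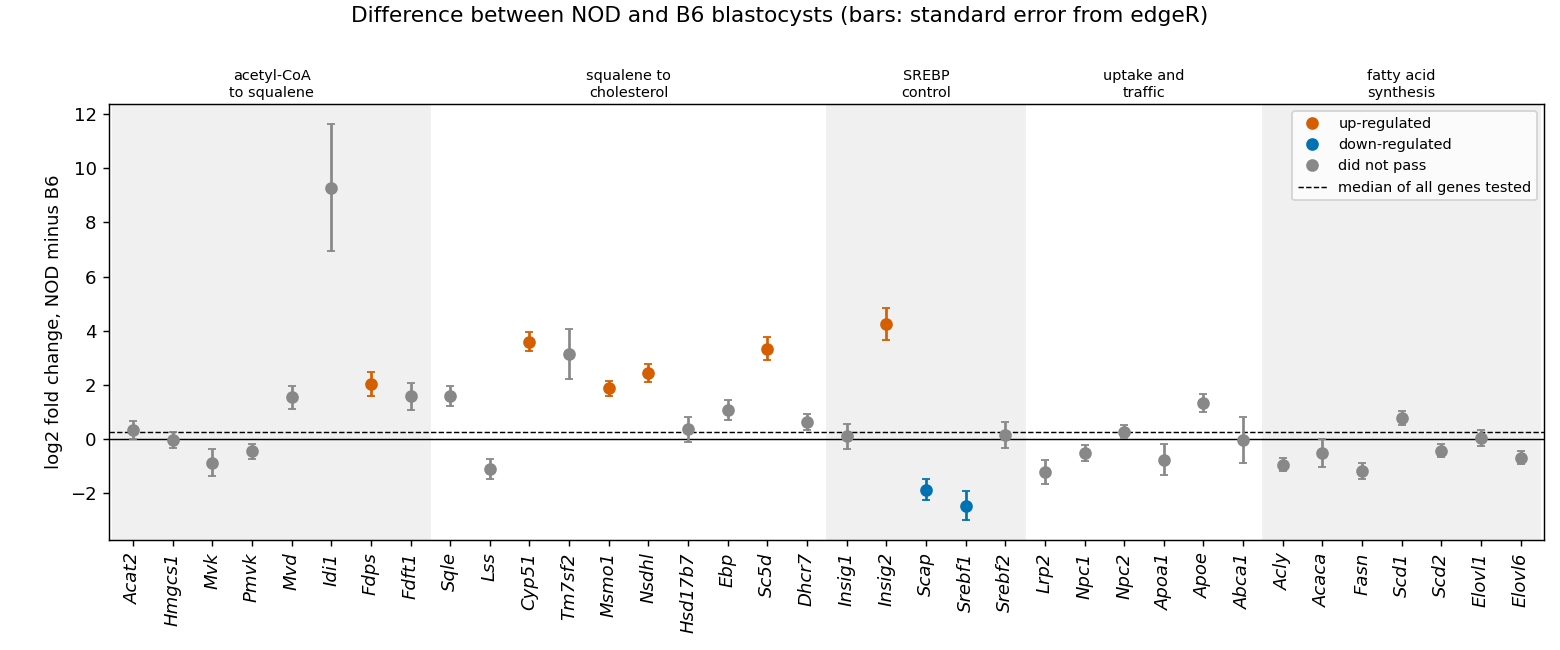
Log2 fold change (NOD minus B6, vertical axis) of the 36 members tested, grouped by role, with bars for the standard error from edgeR and colour for members that were called. Among the called members, Cyp51, Sc5d and Insig2 lie above 3 and Scap and Srebf1 are the lowest of all, whereas members of uptake and fatty acid synthesis lie between -1.22 and 1.34 without a call, and the point of Idi1 depends on the prior count because B6 had 0 counts.

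Promoters are shown for 7 of the 8 called members and for Hmgcs1, since SREBP acts on its targets through sterol response elements, usually beside binding sites of NF-Y (the CCAAT box) and SP1 (the GC box). RefSeq promoters on GRCm38.p6, from 250 bases before to 50 after the start of the gene, were matched to 31 members, and their start lay 22 to 38 bases from that of the counted transcript for Mvk, Lss, Srebf1, Lrp2 and Apoe. For Pmvk it lay 453 bases away, outside the window, which held none of the motifs and is included in the shares below. Letters searched on both strands were TCACNCCAC for the sterol response element, CCAAT for the CCAAT box, GGGCGG for the GC box and CACGTG for the E box, and none of these contains another. Capitals mark the CCAAT boxes, which read ATTGG where they lie on the other strand, and in Hmgcs1 also the sterol response element.
Hmgcs1 (chr13:119690101-119690400, plus strand): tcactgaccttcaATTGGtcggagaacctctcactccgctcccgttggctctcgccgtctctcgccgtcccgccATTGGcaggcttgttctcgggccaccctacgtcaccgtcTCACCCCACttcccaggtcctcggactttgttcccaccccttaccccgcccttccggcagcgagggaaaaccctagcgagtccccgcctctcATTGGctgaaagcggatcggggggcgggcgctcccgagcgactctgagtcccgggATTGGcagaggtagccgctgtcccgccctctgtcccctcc
Cyp51 (chr5:4104648-4104947, minus strand): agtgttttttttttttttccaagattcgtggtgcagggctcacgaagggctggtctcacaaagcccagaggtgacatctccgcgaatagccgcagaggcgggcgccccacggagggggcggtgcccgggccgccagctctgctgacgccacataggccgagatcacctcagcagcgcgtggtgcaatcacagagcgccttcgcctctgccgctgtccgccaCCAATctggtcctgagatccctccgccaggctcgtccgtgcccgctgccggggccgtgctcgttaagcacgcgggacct
Msmo1 (chr8:64733529-64733828, minus strand): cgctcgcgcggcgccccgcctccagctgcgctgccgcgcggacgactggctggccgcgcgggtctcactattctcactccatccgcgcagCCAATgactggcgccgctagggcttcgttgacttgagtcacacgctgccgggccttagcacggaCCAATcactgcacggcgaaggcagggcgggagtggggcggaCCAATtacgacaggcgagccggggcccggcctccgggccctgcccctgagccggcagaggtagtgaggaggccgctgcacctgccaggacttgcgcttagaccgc
Nsdhl (chrX:72918271-72918570, plus strand): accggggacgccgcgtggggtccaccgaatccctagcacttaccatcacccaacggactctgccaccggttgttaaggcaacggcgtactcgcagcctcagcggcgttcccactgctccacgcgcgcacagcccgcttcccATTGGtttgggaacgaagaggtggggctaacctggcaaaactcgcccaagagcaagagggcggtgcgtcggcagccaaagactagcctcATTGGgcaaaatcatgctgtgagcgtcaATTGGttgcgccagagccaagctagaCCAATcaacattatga
Sc5d (chr9:42264251-42264550, minus strand): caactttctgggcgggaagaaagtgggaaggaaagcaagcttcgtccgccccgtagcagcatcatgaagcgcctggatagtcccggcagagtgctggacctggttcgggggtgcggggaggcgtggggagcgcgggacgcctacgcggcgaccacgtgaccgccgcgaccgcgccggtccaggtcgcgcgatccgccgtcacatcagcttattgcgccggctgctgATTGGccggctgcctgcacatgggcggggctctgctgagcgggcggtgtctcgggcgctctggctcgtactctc
Insig2 (chr1:121327975-121328274, minus strand): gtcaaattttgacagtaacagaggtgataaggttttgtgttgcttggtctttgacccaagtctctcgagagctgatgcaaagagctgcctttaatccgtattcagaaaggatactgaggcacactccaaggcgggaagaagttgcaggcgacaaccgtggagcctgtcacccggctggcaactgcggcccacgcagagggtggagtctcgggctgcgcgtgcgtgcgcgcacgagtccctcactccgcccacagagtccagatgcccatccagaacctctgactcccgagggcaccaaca
Scap (chr9:110333038-110333337, plus strand): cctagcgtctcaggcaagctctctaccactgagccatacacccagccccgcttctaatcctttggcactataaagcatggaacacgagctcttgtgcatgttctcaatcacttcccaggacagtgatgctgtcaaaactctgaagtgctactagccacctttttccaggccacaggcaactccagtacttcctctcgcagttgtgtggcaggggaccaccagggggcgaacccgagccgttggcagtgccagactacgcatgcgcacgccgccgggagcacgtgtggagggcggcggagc
Srebf1 (chr11:60220578-60220877, minus strand): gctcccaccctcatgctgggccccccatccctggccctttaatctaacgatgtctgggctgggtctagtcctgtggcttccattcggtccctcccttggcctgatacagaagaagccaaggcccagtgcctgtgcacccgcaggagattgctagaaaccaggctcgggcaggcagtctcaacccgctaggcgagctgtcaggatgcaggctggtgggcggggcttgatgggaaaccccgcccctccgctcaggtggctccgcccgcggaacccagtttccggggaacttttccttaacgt

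Hmgcs1 was the only member of the 31 with the letters of the sterol response element in this window (3.23%, beside 1.18% of 16814 promoters, 1 per gene of the counts), at position -137 from the gene start, and the log2 fold change of Hmgcs1 was -0.04. CCAAT boxes stood in 18 of 31 member promoters (58.1%, beside 38.8%), and in 12 of the 15 promoters of sterol synthesis enzymes, among them those of Cyp51, Msmo1, Nsdhl and Sc5d printed above. They were not found in the printed promoters of Insig2, Scap and Srebf1. GC boxes stood in 24 of 31 (77.4%, beside 47.9%) and E boxes in 5 (16.1%, beside 8.15%). A match describes the letters only, and binding was not measured in these libraries. For the sterol response element only the letters TCACNCCAC were searched. A site that differs from them is not counted, so that a promoter without a match may still hold one.

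The enzymes from acetyl-CoA to squalene were higher in both NOD libraries for 5 of 8 genes (62.5%, beside 45.3% of all genes tested). Of the 8, 1 was called up-regulated (12.5%, beside 10.3%). Fdps (NM_001253751, chromosome 3, 89093588 to 89101967, mm10) encodes farnesyl diphosphate synthase, which makes the common precursor of sterols, dolichol and prenylated proteins. It had 372 counts in B6 and 2861 and 4733 in NOD, which is 27.3, 86.6 and 139.1 CPM (counts scaled by library total and TMM factor). Both NOD libraries were above B6, by 2.05 on the log2 scale (standard error 0.44, edgeR adjusted p = 0.0438). Of the 50-base words of its transcript, 86.4% also occur in other annotated genes, among them Gm43738, whose exons overlap 81.3% of the exon bases of Fdps on the same strand, so that reads of these genes cannot be told apart and the value is uncertain.

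At the start of the pathway, Acat2 and Hmgcs1 had small fold changes. Hmgcs1, the synthase of HMG-CoA, had 122 CPM in B6 against 129.9 and 107.8 in the NOD libraries, with B6 between the NOD libraries and a log2 fold change of -0.04 (standard error 0.29). Acat2, which joins acetyl-CoA units, had a log2 fold change of 0.33 and shares 45.9% of its words with other genes. The next enzymes, Mvk and Pmvk, add phosphate groups to mevalonate. Mvk had a log2 fold change of -0.88 (standard error 0.50), and Pmvk, the highest of the sterol enzymes per length in B6, had 122.9 CPM in B6 and 83.9 and 95.4 in NOD (-0.45, standard error 0.28).

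Further along, the decarboxylase Mvd had 151 counts in B6 against 1059 and 1103 in the NOD libraries. The NOD libraries, at 32.0 and 32.4 CPM, lay close together and above 11.1 CPM in B6, but the change of 1.54 (standard error 0.42) did not pass (edgeR adjusted p = 0.0667). Idi1, the isomerase that readies the isoprene unit for joining, had 0 counts in B6 and 55 and 140 in NOD. Against the level that 3 counts in B6 stand for (0.220 CPM), the NOD mean of 2.89 ± 1.73 CPM (SD, n = 2) was at least 13.1-fold higher (at least 7.56-fold from NOD 1 alone and 18.7-fold from NOD 2 alone), and the gene did not pass the test (edgeR adjusted p = 0.0571). Of the words of Idi1, 30.5% are shared with other genes, and 10.7% of its exon bases overlap Gm48574 on the other strand. Fdft1, the squalene synthase, had 428, 2201 and 4129 counts and a log2 fold change of 1.58 (standard error 0.50, edgeR adjusted p = 0.0865), and 30.7% of its words are shared, part of them with the antisense gene Ctsb, whose reads cannot be told apart because both strands were counted together.

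From squalene to cholesterol, 9 of 10 enzymes were higher than B6 in both NOD libraries (90%, beside 45.3% of all genes tested). Of the 10, 4 were called up-regulated (40%, beside 10.3%) and none down-regulated (beside 7.39%). The median log2 fold change of these 10 enzymes was 1.73, beside 0.94 for the first part of the pathway. Summed per transcript length, the 18 enzymes of both parts came to 412 CPM per kilobase in B6 against 732 and 900 in the NOD libraries.

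Cyp51 (NM_020010, chromosome 5, 4080674 to 4104697, mm10) encodes lanosterol 14-alpha-demethylase, which removes a methyl group from lanosterol. It had 157 counts in B6 and 4863 and 4502 in NOD, or 11.5, 147.1 and 132.3 CPM. Both NOD libraries were more than 10 times the B6 level, and they differed from each other far less than from B6 (log2 fold change 3.60, standard error 0.35, edgeR adjusted p = 0.0196). Of its exons, 4.22% overlap Akap9 on the other strand. Sc5d (NM_172769, chromosome 9, 42254177 to 42264300, mm10), the desaturase that makes a late double bond, had 90, 2408 and 2076 counts, or 6.61 CPM in B6 against 72.9 and 61.0 in the NOD libraries. Sc5d was up-regulated by 3.34 on the log2 scale (standard error 0.44, edgeR adjusted p = 0.0231).

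Msmo1 and Nsdhl act one after the other in removing the methyl groups at carbon 4 of the ring, and both rose. Nsdhl (NM_010941, chromosome X, 72918521 to 72958528, mm10) had 336 counts in B6 and 4237 and 4678 in NOD, or 24.7, 128.2 and 137.5 CPM (log2 fold change 2.43, standard error 0.32, edgeR adjusted p = 0.0231). Nsdhl and Ebp lie on the X chromosome, and the labels do not give the sex of the embryos. Msmo1 (NM_025436, chromosome 8, 64718145 to 64733578, mm10) had 957, 7692 and 9567 counts, or 70.2, 232.7 and 281.2 CPM (log2 fold change 1.87, standard error 0.28, edgeR adjusted p = 0.0258). Per length, Msmo1 was the highest sterol enzyme in NOD 1, at 128.2 CPM per kilobase, and the Msmo1 level in B6 was 38.7.

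The other enzymes after squalene did not pass. Sqle, the squalene epoxidase and a known control point of the pathway, had 763, 4449 and 6953 counts, or 56.0, 134.6 and 204.3 CPM (log2 fold change 1.60, standard error 0.38, edgeR adjusted p = 0.0511). Tm7sf2, a sterol reductase, had 11 counts in B6 against 297 and 181 in the NOD libraries, a ratio of pooled counts of 8.83 with an exact 95% interval from 4.89 to 17.8 that covers counting error only (edgeR adjusted p = 0.0761). Sqle and Tm7sf2 lay above B6 in each NOD library. Ebp, the sterol isomerase, had 126.2, 205.4 and 325.3 CPM and was the highest sterol enzyme per length in NOD 2, at 187.6 CPM per kilobase (log2 fold change 1.07, standard error 0.37, edgeR adjusted p = 0.101). Dhcr7 and Hsd17b7, reductases of the last steps and of the carbon 4 steps, had log2 fold changes of 0.63 and 0.36. Lss, which closes squalene epoxide into lanosterol, was the exception in direction, at 47.0 CPM in B6 and 23.3 and 20.2 in NOD (-1.11, standard error 0.37, edgeR adjusted p = 0.0967).

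**Figure D2:**
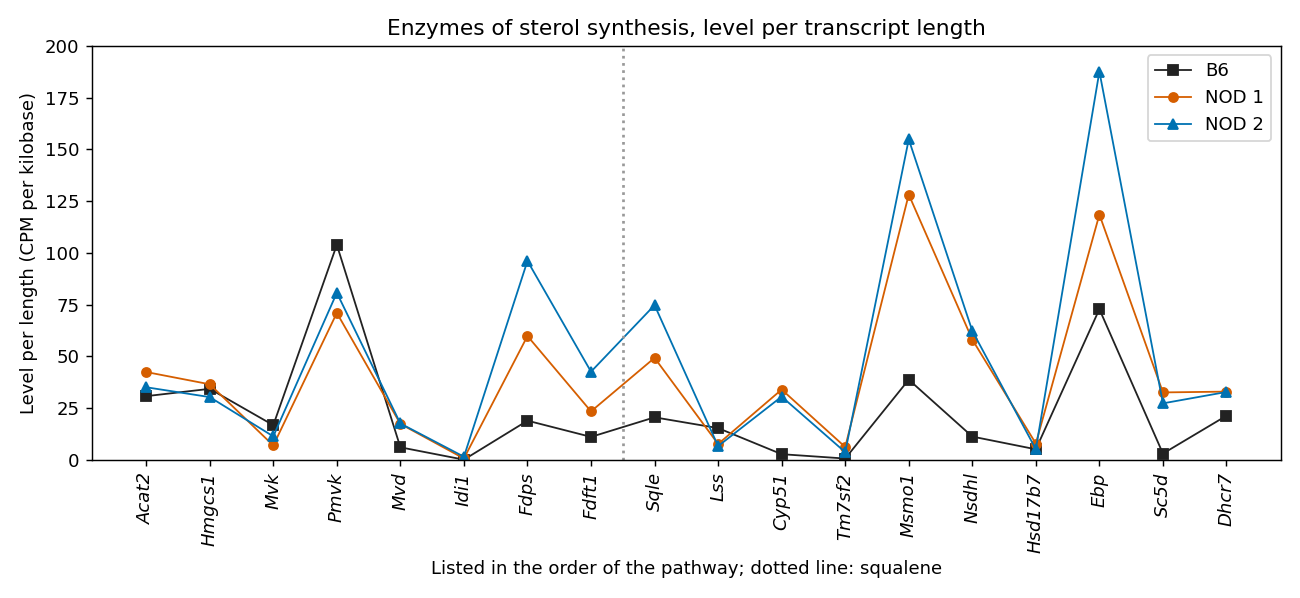
Level per transcript length (CPM per kilobase, linear axis) of the 18 sterol enzymes in the order of the pathway, with 1 line per library and a dotted line at squalene. The libraries lie close at Hmgcs1, the B6 line is highest at Pmvk, and both NOD lines lie above B6 from Cyp51 on, by little at Hsd17b7, with their highest points at Msmo1 (NOD 1) and Ebp (NOD 2).

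Among the 5 genes of SREBP control, 1 was up-regulated (20%, beside 10.3% of all genes tested) and 2 were down-regulated (40%, beside 7.39%). Insig2 (NM_133748, chromosome 1, 121304353 to 121328024, mm10), which retains SCAP in the endoplasmic reticulum, had 21 counts in B6 and 1124 and 854 in NOD, or 1.54, 34.01 and 25.1 CPM. Both NOD libraries lay far above B6, with a ratio of pooled counts of 19.1 (exact 95% interval 12.5 to 31.0, counting error only) and a log2 fold change of 4.26 (standard error 0.59, edgeR adjusted p = 0.0242). Its paralogue Insig1, itself an SREBP target, had 114.2 CPM in B6 against 83.6 and 161.2 in the NOD libraries. B6 lay between the NOD libraries, and the log2 fold change of 0.10 (standard error 0.46) turned to -0.09 when libraries were scaled by total counts. Per length, the Insig1 level was 75.4 times that of Insig2 in B6, and 2.50 and 6.54 times in NOD 1 and NOD 2.

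Scap (NM_001103162, chromosome 9, 110333288 to 110384949, mm10) had 1143 counts in B6 and 894 and 642 in NOD, or 83.9, 27.0 and 18.9 CPM. The difference of -1.87 (standard error 0.39, edgeR adjusted p = 0.0410) was larger than that between the NOD libraries, and 18.6% of its exon bases overlap 5830462I19Rik on the other strand. Srebf1 (NM_011480, chromosome 11, 60199089 to 60220604, mm10) had 1562, 946 and 454 counts, or 114.6 CPM in B6 against 28.6 and 13.3 in the NOD libraries. The NOD libraries differed from each other by 1.07 on the log2 scale and both lay below B6, by 2.45 on that scale (log2 fold change -2.45, standard error 0.52, edgeR adjusted p = 0.0429). The count does not separate the SREBP1a and SREBP1c transcripts of the gene, and 2.54% of the exon bases of Srebf1 overlap Rai1 on the other strand.

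For Srebf2, which encodes the factor of the sterol genes, no difference was detected, with 30.5 CPM in B6 and 42.7 and 25.0 in NOD. B6 lay between the NOD libraries, and the log2 fold change of 0.15 (standard error 0.48) turned to -0.03 under scaling by total counts and was 0.93 with the offsets for GC content and length (edgeR adjusted p = 0.228). Per length, Srebf1 was at 4.002 times the level of Srebf2 in B6, and at 0.713 and 0.567 times in NOD 1 and NOD 2. Processing of the precursors, on which their activity depends, is not measured by transcripts.

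**Figure D3:**
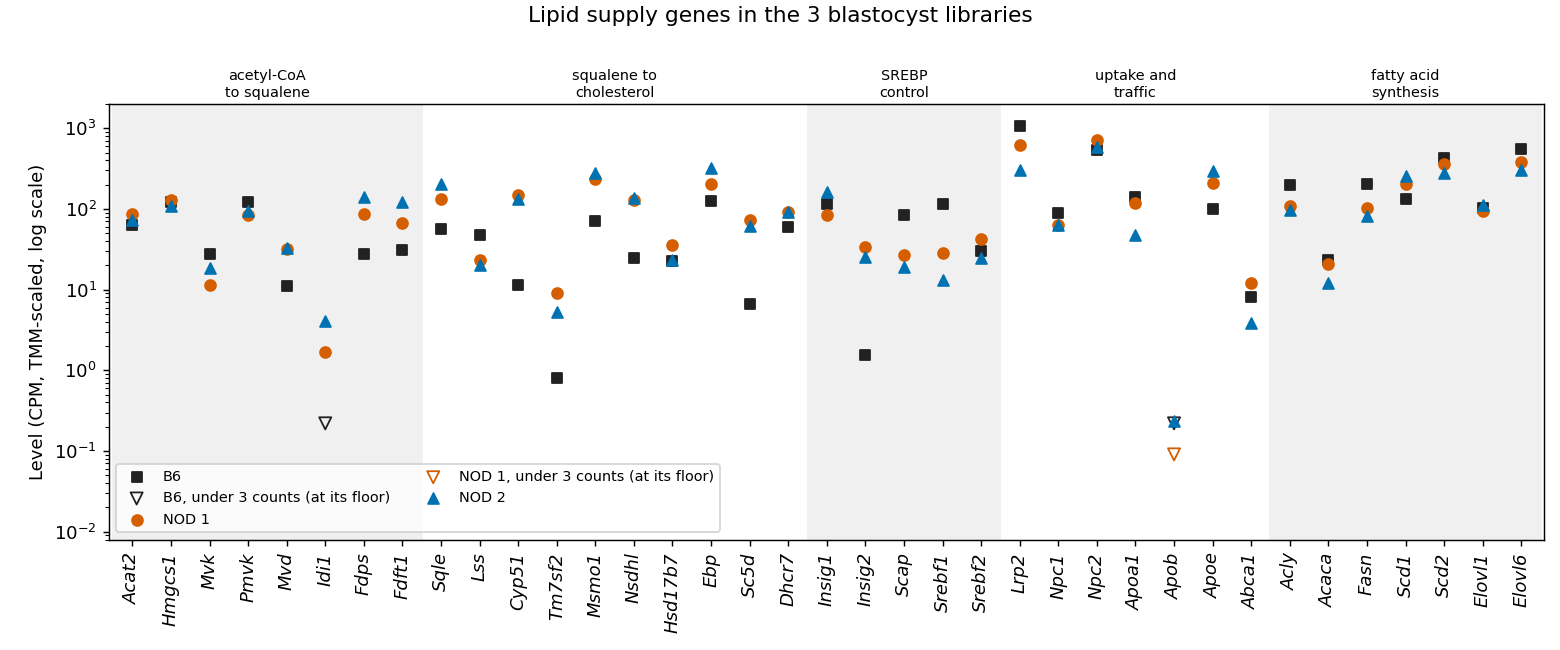
Level (CPM on the TMM scale, log axis) of the 37 members in each library, shaded by role, with open triangles where a library had under 3 counts and is drawn at that floor. The squares of B6 lie far under both NOD points at Cyp51, Tm7sf2, Sc5d and Insig2, and above both at Scap and Srebf1.

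No gene of lipoprotein uptake and sterol traffic was called among the 6 tested, whose median log2 fold change was -0.28. Lrp2 encodes megalin, a large endocytic receptor of absorptive epithelia and extraembryonic endoderm. It stood at 1074 CPM in B6 against 618 and 304 in the NOD libraries (log2 fold change -1.22, standard error 0.43, edgeR adjusted p = 0.108), lower in both NOD libraries but with a gap of 1.02 on the log2 scale between them. With the offsets for GC content and length, its log2 fold change was -0.44 (edgeR adjusted p = 0.326). Apoe, the apolipoprotein through which many cells exchange lipid, had 99.4, 206.9 and 296.8 CPM (log2 fold change 1.34, standard error 0.33, edgeR adjusted p = 0.0550). Per length, the Apoe level was 202 ± 51.1 CPM per kilobase in NOD (SD, n = 2) and 79.9 in B6, the highest of all members in NOD 2 and behind Npc2 in NOD 1.

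Npc2 and Npc1 hand cholesterol out of the lysosome. Npc2 was the highest member per length in B6, at 164.9 CPM per kilobase, with 200 ± 27.1 in NOD (SD, n = 2), and its log2 fold change was 0.28. The log2 fold change of Npc1 was -0.52. Apoa1, the main protein of high-density lipoprotein, had 139.0 CPM in B6 and 117.4 and 47.4 in NOD (-0.76, standard error 0.57). Abca1, the cholesterol exporter that loads it, had 111, 395 and 133 counts, with the NOD libraries on opposite sides of B6 and more than 1 log2 unit apart (-0.04, standard error 0.85).

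The genes of fatty acid synthesis were lower than B6 in both NOD libraries for 5 of 7 (39.4% of all genes tested showed this), without a call, and their median log2 fold change was -0.52. Fasn, the fatty acid synthase, had 2818 counts in B6 and 3392 and 2751 in NOD, or 206.8, 102.6 and 80.8 CPM. This was a log2 fold change of -1.17 (standard error 0.28, edgeR adjusted p = 0.0521), which did not pass, although Fasn was called down in 6 of the 11 alternatives that give a test. It was 0.14 with the offsets for GC content and length given below. Acly, which supplies cytosolic acetyl-CoA, had 196.2, 107.8 and 97.1 CPM (-0.94, standard error 0.26, edgeR adjusted p = 0.0662). Acaca, the carboxylase that makes malonyl-CoA, had a log2 fold change of -0.52, and 55.4% of its words are shared.

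Elongases lengthen fatty acids and desaturases add double bonds to them. Elovl6 had 552 CPM in B6 against 381 and 303 in the NOD libraries (-0.69, standard error 0.24, edgeR adjusted p = 0.104) and was the highest of this group per length in B6. The stearoyl-CoA desaturases differed in direction, with 133, 203 and 253 CPM for Scd1 (0.78, standard error 0.27) and 431, 357 and 283 CPM for Scd2 (-0.43, standard error 0.25). Neither passed, and the level of Scd2 per length was 2.88 times that of Scd1 in B6, 1.55 times in NOD 1 and 0.991 times in NOD 2. Elovl1 had 102.6 CPM in B6, between 95.5 in NOD 1 and 113.3 in NOD 2, and its log2 fold change of 0.02 changed sign with the scaling.

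The spread between the NOD libraries was similar for the members and for other genes. The median absolute difference between NOD 1 and NOD 2 was 0.387 on the log2 scale over the 36 members and 0.416 over all genes tested. Per length, the order of the members differed between libraries. Cyp51 ranked 31st of 37 in B6 and 17th and 18th in NOD 1 and NOD 2, Nsdhl 25th and then 10th and 9th, and Srebf1 16th and then 31st and 33rd. Ranks also moved between the NOD libraries, as for Apoa1 (4th and 14th) and Insig1 (20th and 10th), and the change of order was not tested. The 3 highest in B6 were Npc2, Apoa1 and Pmvk, and the 3 highest on average in NOD were Apoe, Npc2 and Ebp, whose SDs overlap.

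Fold changes moved with the composition and length of transcripts in these libraries. In 5 equal groups of all genes by GC content, the median log2 fold change went from 0.86 in the lowest group to -0.50 in the highest, and the share called up from 17.6% to 4.84%. Of the 6 up-regulated members, 5 lie in the lowest 2 groups (42.9% GC in Sc5d to 46.2% in Cyp51) and Fdps, at 54.5%, lies above the median, and both down-regulated members lie in the highest (59.1% in Scap and 58.4% in Srebf1). Across genes, which are not independent replicates, Spearman's rho of log2 fold change with GC content was -0.40 over the 36 members and -0.22 over all genes, and with length it was -0.40 and -0.18.

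When smooth offsets for GC content and length were added to the edgeR fit, a choice made after seeing the data, 4 members were called up (beside 4.54% of all genes) and none down (beside 6.35%). Cyp51 (3.35), Insig2 (3.50), Sc5d (2.26) and Nsdhl (1.47) were still called, with edgeR adjusted p from 0.0264 to 0.0473. Msmo1 (0.69), Fdps (1.45), Scap (-1.12) and Srebf1 (-1.70) no longer passed. The median log2 fold change of the 18 sterol enzymes went from 1.56 to 0.92, that of fatty acid synthesis from -0.52 to -0.19, and that of all genes from 0.26 to -0.05. With 1 library of B6, a difference of strain and a difference of library composition cannot be told apart.

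**Figure D4:**
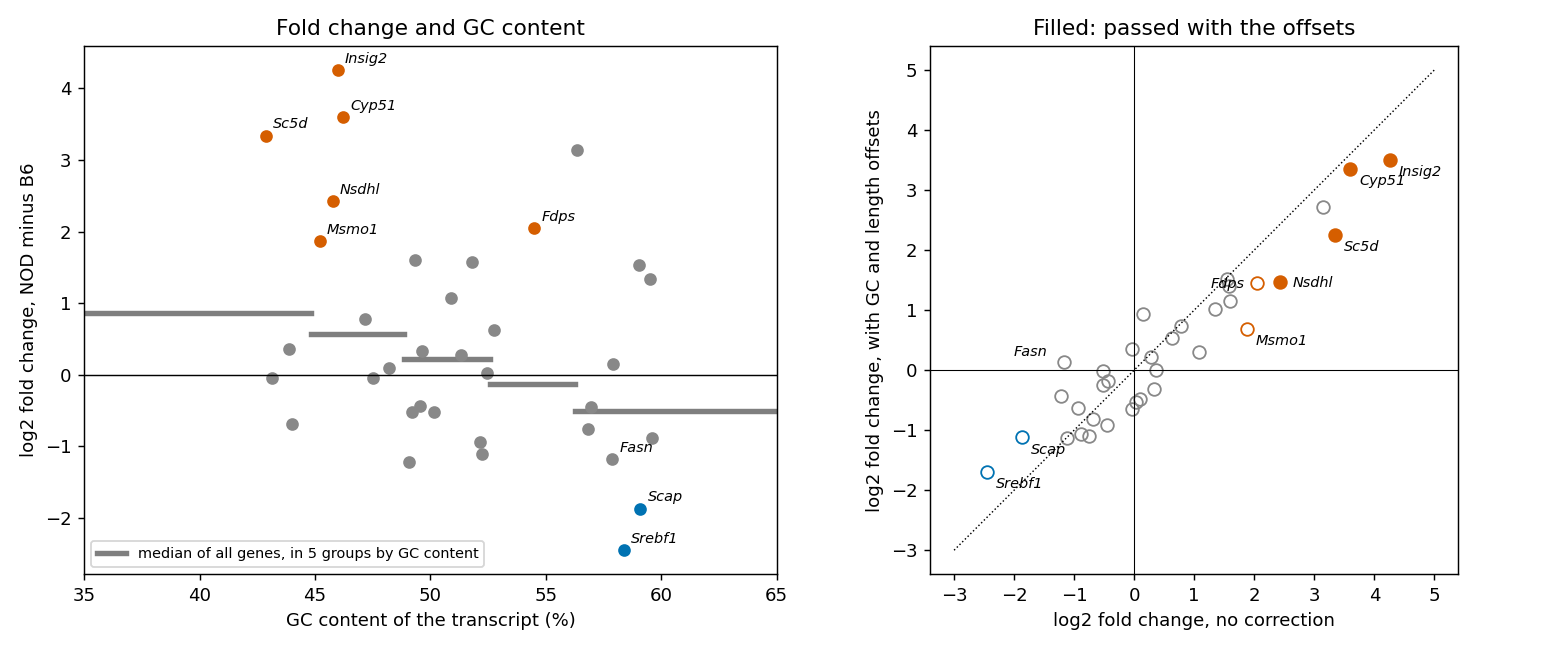
Left, log2 fold change (NOD minus B6) of the members against GC content of the transcript (%), with grey bars for the median of all genes in each of 5 equal groups by GC content. Right, log2 fold change with against without the offsets, filled where still called; Idi1, with 0 counts in B6, lies off both panels. Cyp51, Insig2, Sc5d and Nsdhl stay filled, and Fasn crosses 0.

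Related genes that are not members were taken from a list of 51 by role, of which 49 are in the table and 47 were tested. Of these, 11 were up-regulated (23.4%, beside 10.3% of all genes tested) and 5 were down-regulated (10.6%, beside 7.39%), with a median log2 fold change of 0.73. Most calls were in fatty acid synthesis and desaturation, where 7 of 18 rose (38.9%) and 2 fell (11.1%). Tecr and Hsd17b12, reductases of the elongation cycle, had 99.8 and 61.8 CPM in B6 and rose by log2 fold changes of 2.24 (standard error 0.25, edgeR adjusted p = 0.0205) and 2.34 (standard error 0.28, edgeR adjusted p = 0.0219). The elongases Elovl5 (2.27) and Elovl7 (2.85), the fatty acid activating enzyme Acsl4 (4.22) and the desaturase Fads1, with 1 count in B6 and 490 and 493 in NOD (a ratio of 199.7, exact 95% interval 35.8 to 7895, counting error only), were also up-regulated. Acacb (-2.67), the mitochondrial carboxylase, and Mlxipl (-3.56), the carbohydrate-responsive factor ChREBP, were down-regulated.

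Of the 19 related genes of uptake and traffic tested, 4 were up-regulated (21.1%, beside 10.3% of all genes) and 3 down-regulated (15.8%, beside 7.39%). Both NOD libraries were higher than B6 for 8 of them and lower for 10, and their median log2 fold change was -0.37. Among those that rose, Stard4, a soluble cholesterol carrier, had 17 counts in B6 and 1722 and 1787 in NOD. This was a ratio of 41.9 (exact 95% interval 26.1 to 72.1, counting error only) and a log2 fold change of 5.38 (standard error 0.51, edgeR adjusted p = 0.0196). Soat1, which esterifies cholesterol for storage, rose from 31.9 CPM in B6 to 149.8 and 195.7 (2.44, standard error 0.35, edgeR adjusted p = 0.0242). Lrpap1, a chaperone of lipoprotein receptors, rose from 838 CPM to 3518 and 2551 (1.86, standard error 0.27, edgeR adjusted p = 0.0243). None of the 4 genes of the isoprenoid branch and none of the 6 of SREBP processing and sterol sensing was called, and 2 of these 10 had an unadjusted p under 0.05. With the offsets, 11 of the 47 related genes tested were called up (beside 4.54% of all genes) and 1 down (beside 6.35%).

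Markers of the cell types of a blastocyst were present in all 3 libraries and differed in sum between the strains. The 11 trophectoderm markers summed to 3303 CPM in B6 and to 1958 and 1762 in NOD, with none called, whereas the 10 epiblast markers summed to 471 and to 790 and 1007, with Tdgf1, Gdf3 and Zfp42 up-regulated and Sox2 down-regulated. The 13 primitive endoderm markers summed to 1060 in B6 and to 1090 and 1327 in NOD, with Pdgfra up-regulated, Gata6 down-regulated and Foxa2 at 0 counts in every library. The higher sums in NOD rest on Dab2, with 371 CPM in B6 and 651 and 824 in NOD. Gata6 had 385 CPM in B6 and 91.5 and 130 in NOD. Of the 13, 3 (Dab2, Cubn and Amn) are also on the list of related lipid genes. With the offsets for GC content and length, Tdgf1, Sox2 and Gata6 were still called, Gdf3, Zfp42 and Pdgfra were not, and Krt18 of the trophectoderm list was called down (-1.28, edgeR adjusted p = 0.0315). These differences stand beside the up-regulated sterol enzymes of NOD, and their part in them was not tested. Of the 5 oocyte markers, the sum was 30.7 CPM in B6 and 10.3 and 6.26 in NOD. The markers of leukocytes (at most 1.03 CPM in sum, Ptprc at 0), of cumulus cells (at most 0.484, Fshr at 0) and of liver-like secretory cells (at most 1.998, Alb at 0) were near 0. Those of the oviduct reached 8.56 in NOD 1, all of it from Muc1, with Ltf, Lcn2 and Foxj1 at 0 in every library.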

How the data were processed

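RNA-Seq was analysed in 3 blastocyst libraries, 1 from B6 and 2 from NOD, grouped by the strain in the labels. The authors made cDNA with SMART-Seq V4 and amplified it by PCR (19 cycles). Reads of 50 bases, from 1 end, were aligned by STAR to mm10 (version 2.2.0c per the submitters' processing notes, another version in the study's methods) and counted on exons with HOMER. The deposited values are raw counts per gene, on both strands together and for 1 transcript per gene, and 7298 of 24063 genes had 0 counts in every library. The counting command names 5 libraries, of which the 3 in the table were used.

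Counts were tested in R 4.3.3 with edgeR 4.0.16 (filterByExpr with a minimum count of 10, TMM factors of 1.09 for B6, 0.975 for NOD 1 and 0.941 for NOD 2, trended dispersion, glmQLFit with legacy set to false, Benjamini-Hochberg adjustment over 14456 genes). Fold changes used a prior count of 0.125, and standard errors were derived from each fold change and the root of its F statistic. The median biological coefficient of variation was 0.374, with 3.78 prior and 1 residual degrees of freedom. The limits for a call (0.05 and 2-fold) are those the study gives for ES cell pathways. The procedure was tested on simulated data. A count of 0 allows a level of 3 counts (0.220 CPM in B6, 0.0908 in NOD 1, 0.0882 in NOD 2), and intervals (Clopper-Pearson, 95%) are given for B6 counts from 1 to 30. Both cover counting error only, because reads without molecular identifiers are not independent molecules.

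The members and all gene lists were chosen with earlier results of these data known. Members called, highest of their role per length, on both sides of B6 or with a call that changed under an alternative are given with all libraries, the others by fold change, and of the related genes at most the 12 highest called. GC content (known for 99.1% of genes) and shared 50-base words come from GENCODE M21. Alternatives were DESeq2 1.42.0, limma 3.58.1 (voom), other scalings, filters and prior counts, each NOD library left out, and members without shared sequence. Not analysed here were Hacd2 and Hacd3, whose symbols were not found. The result for 1 related gene is not reported here.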

Additional observations from a re-analysis of the deposited data

How the results depend on the processing

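The number of members called depended on the test and the filter more than on the scaling. From 8 members (6 up, 2 down), it went to 5 (5 up) with upper-quartile factors, to 17 (13 up, 4 down) with DESeq2, to 0 with limma-voom (16 with an unadjusted p under 0.05) and to 0 when genes of low counts were kept (18). It was 4 (all up) without members that share or overlap sequence. Chosen after seeing the data, an edgeR fit with legacy quasi-likelihood called 15 and the offsets for GC content and length called 4. Over all genes, 2552 calls became 4252 with DESeq2, 1565 with the offsets, 0 with limma-voom (3924 with an unadjusted p under 0.05) and 0 without the filter (5568), and the 16 related lipid genes called became 0 in the last of these and with limma-voom (26 and 18 with an unadjusted p under 0.05). Cyp51, Nsdhl, Sc5d and Insig2 were called in 9 of 11 alternatives that give a test, Msmo1 in 8, Scap and Srebf1 in 7 and Fdps in 6. Among the 11, a prior count of 2 changes only the fold change and keeps the adjusted p of the main fit. It is therefore not a separate test. Of the members not called in the report, Fasn was called down in 6, Sqle and Apoe were called up in 4, Idi1 in 3, Mvd and Fdft1 in 2 and Tm7sf2 and Ebp in 1, and Lrp2 was called down in 2. Scaling by total counts moved the median of all genes from 0.26 to 0.07 and the calls from 1483 up and 1069 down to 1037 up and 1132 down. Signs turned with that scaling for Insig1 (-0.094), Srebf2 (-0.027) and Elovl1 (-0.16), with DESeq2 or its size factors for Elovl1 (-0.013), and with the offsets for Acat2 (-0.32), Insig1 (-0.49), Abca1 (0.35), Fasn (0.14) and Elovl1 (-0.53), none of them called where the sign turned. The causes of these changes were not tested, except that a smaller set of members holds fewer calls. Leaving out 1 NOD library leaves 1 against 1, a value with no test: the median of the members ranged from 0.14 without NOD 1 to 0.48 without NOD 2, where that of all genes was 0.11. The B6 library, with the fewest counts, limits what could be detected for Idi1, Tm7sf2, Insig2 and Apob. No paired analysis was possible because the groups share fewer than 2 replicate numbers.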
